A study of Mus musculus with 3 samples.

Results

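The small leucine-rich proteoglycans examined here are the genes Dcn, Bgn, Lum, Fmod, Ogn, Prelp, Aspn, Kera and Podn, that is 9 of the 36167 features in the count tables. Their rows were read in nuclei with at least 1000 UMIs (unique molecular identifiers, 1 per captured RNA molecule) and at most 5% mitochondrial UMIs. The nuclei came from aortic valve structures of mice at postnatal day 1, collected as 3 pools of 22 to 24 aortic roots that form 1 group. All pups carried the strain label B6.Cg-Scx<tm1.1(EGFP)Skom, an allele that places EGFP at the tendon transcription factor gene Scx. The zygosity is not given in the labels, and no strain without the allele was measured. Each pool mixed many pups, so differences between pups were not measured. RNA came from nuclei of frozen tissue and was read with the gene expression part of the 10x Genomics Multiome assay.

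Small leucine-rich proteoglycans are secreted proteins whose core is a curved stack of leucine-rich repeats. Many of them bind fibrillar collagen and limit or guide the lateral growth of fibrils, and several carry chondroitin, dermatan or keratan sulfate chains. In heart valves they belong to the collagen-rich and proteoglycan-rich layers that interstitial cells lay down. Decorin (Dcn), biglycan (Bgn) and asporin (Aspn) form the first class of the family. Lumican (Lum), fibromodulin (Fmod), keratocan (Kera) and Prelp form the second, osteoglycin (Ogn) belongs to the third, and podocan (Podn) belongs to a further class. Asporin binds collagen like decorin but lacks the glycosaminoglycan attachment site.

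After likely doublets were left out, 13131 nuclei were analysed, of which 6439 came from pool 1, 3088 from pool 2 and 3604 from pool 3. Their median depth was 4274, 4744 and 3333 UMIs per nucleus. Over these nuclei the tables hold 41586 UMIs of Dcn, 25685 of Bgn, 7452 of Aspn, 6823 of Lum, 3896 of Ogn, 2316 of Fmod, 1134 of Prelp, 522 of Podn and 13 of Kera. Pool 3 had the lowest level of 8 of the 9 genes in the summed nuclei, with 400 CPM of Dcn (CPM, UMIs of the gene per 1000000 UMIs in the same nuclei) against 646 in pool 1 and 733 in pool 2. Kera was the exception, with 8 of its 13 UMIs in pool 3. The share of deposited nuclei above 5% mitochondrial UMIs also differed, at 28.6% in pool 1, 41.8% in pool 2 and 14.1% in pool 3, and its part in these pool differences was not tested. Between 14 and 34 cell barcodes were shared by any 2 pools among the analysed nuclei.

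Classes of nuclei were rebuilt by clustering without the proteoglycan genes and named from marker genes, so each name ends in "-like". The valve interstitial-like class had 1532 nuclei in 3 clusters. Its larger cluster, led by Rmst and Pcdh15 (929 nuclei), detected 10 of the class markers, among them Sox9, Adamts19, Matn4 and Hapln1. The next, led by Abi3bp and Ctnna2 (575 nuclei), detected 5 of them, and the remaining 28 nuclei had cell cycle genes such as Kif20b among their leading genes. The other classes in the tests were fibroblast-like (1508 nuclei), mesothelial-like (376), smooth muscle-like (2987), pericyte-like (137), endothelial-like (2724), lymphatic endothelial-like (119), macrophage-like (252), cardiomyocyte-like (2573) and erythroid-like (74). One fibroblast-like cluster of 502 nuclei was led by cell cycle genes such as Neil3 and rested on 3 fibroblast markers, so comparisons of this class with the classes next to it in level were repeated without it and are given both ways where a call changed. Melanocyte-like and adipocyte-like nuclei were too few in a pool for the tests, and 728 nuclei stayed unnamed. Levels below are CPM of UMIs summed over the nuclei of a class in a pool, given as mean ± SD over n = 3 pools. Differences are on the log2 scale from edgeR's quasi-likelihood test with pool as a block, with p-values adjusted by Benjamini-Hochberg over all 14616 genes tested, and the threshold for a call was 0.05. Of the 9 genes, 8 entered this test, and Kera did not pass the filter on low counts.

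**Figure D1:**
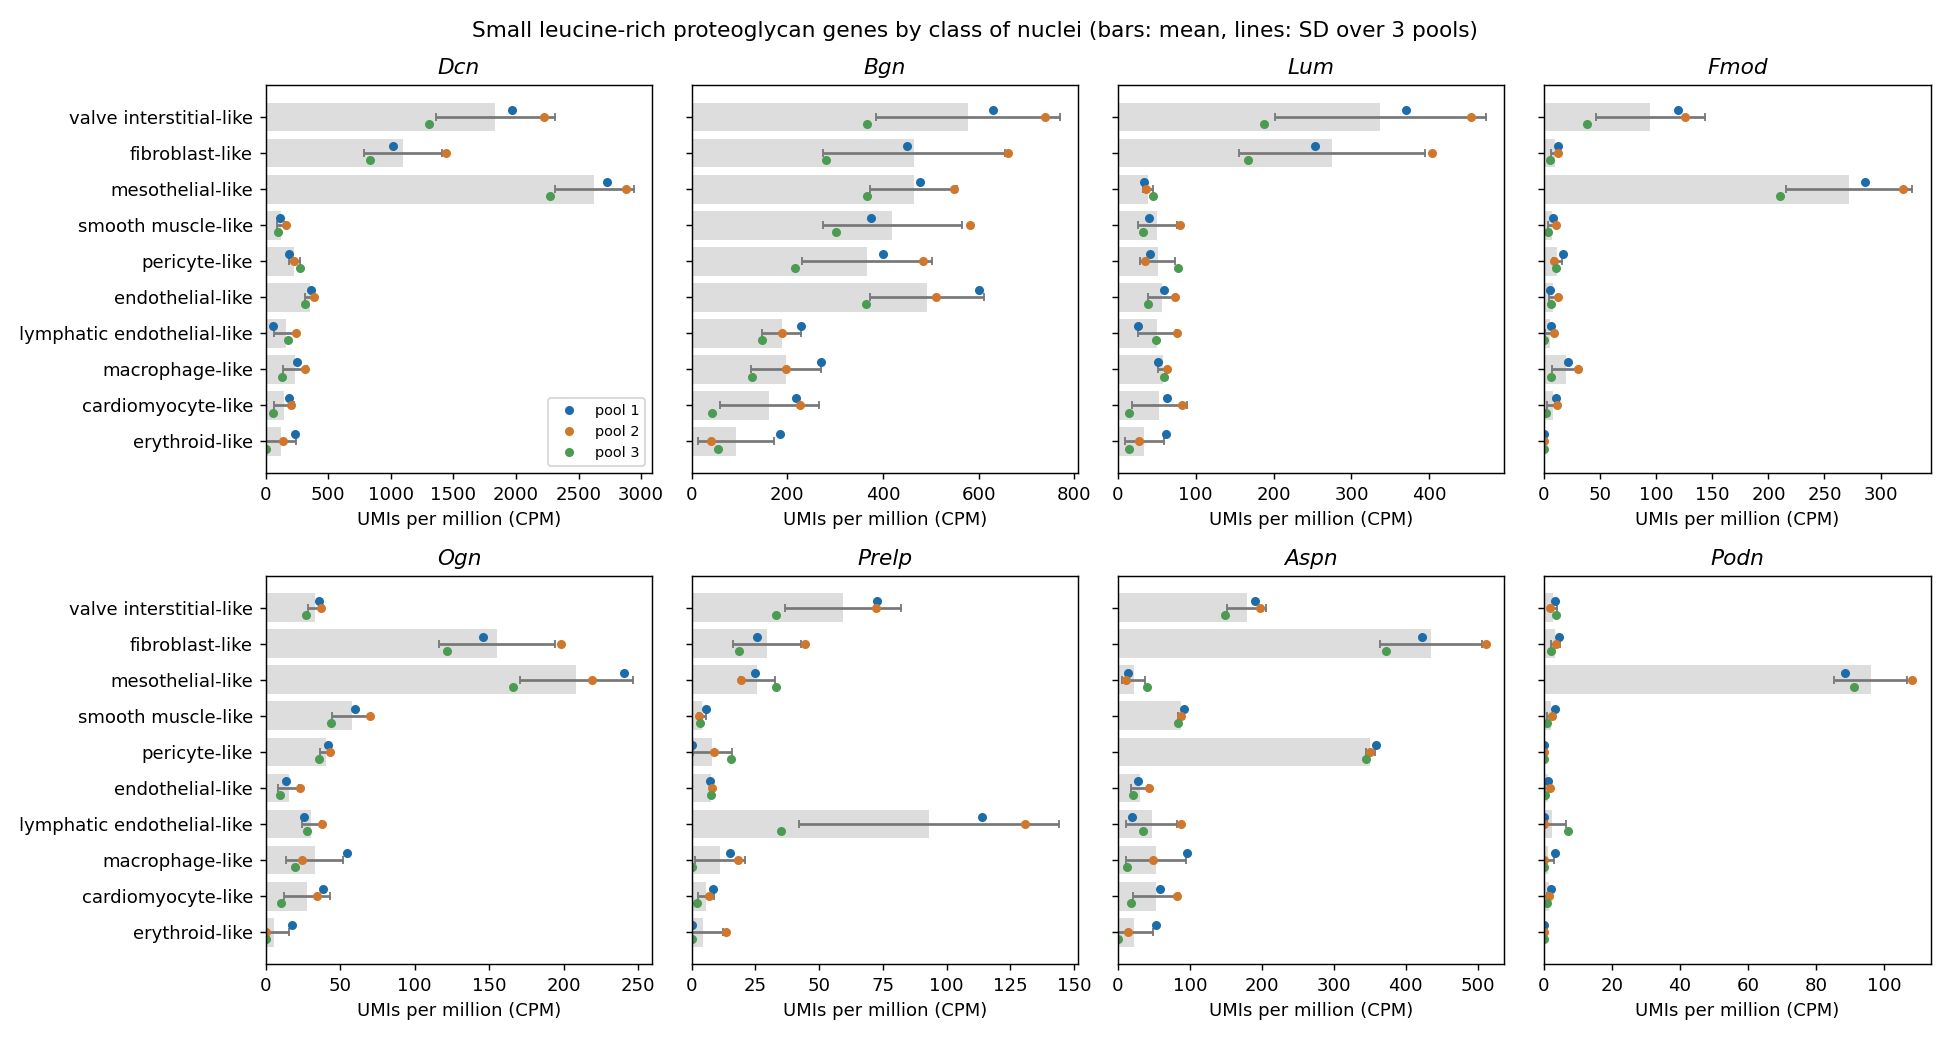
Level of 8 proteoglycan genes in 10 classes of nuclei, in CPM (x axes differ between genes), with 1 point per pool, bars for the mean and lines for the SD over 3 pools. Fmod and Podn peaked in mesothelial-like nuclei at 272 and 96.1 CPM, while Bgn lay between 367 and 578 CPM in 6 classes. Lum had its highest mean in valve interstitial-like nuclei (337 CPM) and Aspn in fibroblast-like nuclei (435 CPM). For Lum and Aspn the difference from the class next in level did not pass the test.

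Valve interstitial-like nuclei were rich in Dcn, Lum, Fmod and Prelp. Against the mean of the other 9 classes, 6 of the 8 tested genes were higher and 0 lower, where 28.8% of all genes tested were called in either direction and 20.7% as higher. The difference was 2.43 ± 0.16 (log2, SE) for Dcn (adjusted p = 3.18e-17), 2.39 ± 0.13 for Lum (8.92e-20), 3.57 ± 0.21 for Fmod (9.27e-19) and 2.15 ± 0.21 for Prelp (7.4e-12) in edgeR. Aspn and Bgn were higher by 1.23 ± 0.19 and 0.89 ± 0.16. Ogn did not pass, at -0.45 ± 0.25 (adjusted p = 0.199), and Podn had 2.78 ± 0.96 CPM in this class. The size for Fmod and Podn depends on classes with 0 UMIs of them, so pairwise differences are given below for those genes.

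Dcn, the best studied collagen-binding member, was highest in mesothelial-like nuclei. There it reached 2728 CPM in pool 1, 2877 in pool 2 and 2273 in pool 3. Valve interstitial-like nuclei followed with 1965, 2228 and 1306 CPM, and fibroblast-like nuclei with 1019, 1438 and 834 CPM. Each of these classes was above the next within every pool, although the pools of adjacent classes overlapped for valve interstitial-like and fibroblast-like nuclei. The step from mesothelial-like to valve interstitial-like nuclei was 0.70 ± 0.24 log2 (adjusted p = 0.0143), and the step down to fibroblast-like nuclei was 0.74 ± 0.25 (adjusted p = 0.0235). Without the fibroblast-like cluster led by cell cycle genes the latter was 0.29 ± 0.25 (adjusted p = 0.538). With those nuclei kept, the call was also lost without pool 1 (adjusted p = 0.101), without pool 2 (0.0642), without the pool block (0.216), with DESeq2 (0.0804), at clustering resolution 2 (0.261), with doublets kept (0.388) and at a minimum of 2000 UMIs (0.0559). Endothelial-like nuclei came next with 353 ± 37.4 CPM. Mesothelial-like and valve interstitial-like nuclei each held 27.5% of all Dcn UMIs, and they held 6.12% and 8.79% of the UMIs of all genes.

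Bgn, a decorin relative that carries a pair of glycosaminoglycan chains, was spread over the most classes. It had 578 ± 192 CPM in valve interstitial-like, 492 ± 119 in endothelial-like, 465 ± 191 in fibroblast-like, 464 ± 91.0 in mesothelial-like, 420 ± 145 in smooth muscle-like and 367 ± 137 in pericyte-like nuclei. No neighbouring pair among these 6 classes passed the test, with adjusted p from 0.416 to 0.719. The first step that did was from pericyte-like to macrophage-like nuclei, which had 197 ± 72.4 CPM (difference 0.97 ± 0.29 log2, adjusted p = 0.0135). Endothelial-like nuclei held 29.8% of all Bgn UMIs. Within them Bgn was concentrated in the cluster led by Rtl4 and Cytl1 (772 nuclei), at 1166 CPM in pool 1, 1094 in pool 2 and 856 in pool 3. The other endothelial-like clusters of 200 or more nuclei had mean levels of 165 to 372 CPM.

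Lum, a keratan sulfate proteoglycan that regulates fibril assembly, was highest in valve interstitial-like and fibroblast-like nuclei. Valve interstitial-like nuclei had 371, 453 and 188 CPM in pools 1 to 3, and fibroblast-like nuclei had 254, 403 and 167 CPM. The pools of these classes overlapped, and their difference of 0.31 ± 0.15 log2 did not pass (adjusted p = 0.16). The next class, macrophage-like, had 58.1 ± 6.24 CPM, lower than fibroblast-like nuclei by 2.50 ± 0.28 log2 (adjusted p = 5.71e-10). Mesothelial-like nuclei, where Dcn was highest, had 38.4 ± 6.40 CPM of Lum, and there it was called lower than in the other classes by edgeR (-1.03 ± 0.24, adjusted p = 0.000371).

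Fmod, which binds collagen at a site that it shares with lumican, had a narrow pattern. Mesothelial-like nuclei had 286 CPM in pool 1, 320 in pool 2 and 210 in pool 3. Valve interstitial-like nuclei had 120, 126 and 38.6 CPM, below every mesothelial-like pool (difference 1.68 ± 0.13 log2, adjusted p = 1.58e-14). This class level mixes clusters that differ in Fmod, as given below. Pools 1 and 2 of the cluster led by Abi3bp and Ctnna2 were above mesothelial-like pool 3. Within each pool that cluster was below mesothelial-like nuclei. All remaining classes had means of at most 19.5 CPM. Fibroblast-like nuclei had 9.92 ± 4.0 CPM of Fmod, whereas Lum did not pass the test between these classes. Erythroid-like nuclei had 0 Fmod UMIs, which allows a level of up to 11.5 CPM at 3 counts over the class, and this limit covers counting error only.

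Prelp, a basic member that binds heparan sulfate and collagen, had its highest mean among the 10 tested classes in lymphatic endothelial-like nuclei. There it had 114, 131 and 35.0 CPM in pools 1 to 3, against 72.8, 72.1 and 33.0 CPM in valve interstitial-like nuclei. These levels rest on 85 Prelp UMIs in the lymphatic endothelial-like class and 384 in the valve interstitial-like class. The lymphatic endothelial-like nuclei, 119 in all, were higher than the mean of the other classes by 2.86 ± 0.31 log2 (adjusted p = 2.15e-10, in 3 of 3 pools, where 17.2% of all genes were called), while the difference from valve interstitial-like nuclei did not pass (0.63 ± 0.28, adjusted p = 0.0873). Blood endothelial-like nuclei had 7.44 ± 0.32 CPM. By UMIs, 33.9% of Prelp lay in valve interstitial-like and 7.5% in lymphatic endothelial-like nuclei. The 54 adipocyte-like nuclei, too few to test, held 3.79% of its UMIs, at 149 CPM in pool 1 (43 nuclei), 88.0 in pool 2 (10 nuclei) and 0 UMIs in pool 3 (1 nucleus). Fibroblast-like nuclei had 29.5 ± 13.4 CPM, lower than valve interstitial-like nuclei by 1.05 ± 0.23 log2 (adjusted p = 0.000323). That last call was lost without pool 1 (0.73, adjusted p = 0.103) and with nuclei of at most 2% mitochondrial UMIs (0.66, adjusted p = 0.107).

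Aspn, which binds collagen and calcium, had the highest mean level in fibroblast-like nuclei, with 422, 511 and 372 CPM in pools 1 to 3. Pericyte-like nuclei had 358, 350 and 345 CPM, a spread of 6.64 CPM (SD) around 351. These 2 classes did not pass against each other (0.34 ± 0.26 log2, adjusted p = 0.548). Without the fibroblast-like cluster led by cell cycle genes, fibroblast-like nuclei had 627 ± 86.1 CPM of Aspn and were called higher than pericyte-like nuclei (0.86 ± 0.27, adjusted p = 0.0262). Pericyte-like nuclei were above valve interstitial-like nuclei, which had 179 ± 26.9 CPM, by 0.95 ± 0.28 (adjusted p = 0.0123). Smooth muscle-like nuclei followed with 87.6 ± 3.94 CPM. Mesothelial-like nuclei had 21.7 ± 16.1 CPM, under the 53.2 ± 32.1 CPM of cardiomyocyte-like nuclei in the mean, although in pool 3 the order was the other way.

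Ogn, also called mimecan, shared the mesothelial-like and fibroblast-like classes. Its levels were 240, 219 and 166 CPM in mesothelial-like pools 1 to 3 and 146, 198 and 122 CPM in fibroblast-like pools. Mesothelial-like nuclei were higher in each pool, by 0.62 ± 0.14 log2 (adjusted p = 0.000183). That call was lost without the fibroblast-like cluster led by cell cycle genes (0.24 ± 0.14, adjusted p = 0.145). The remaining fibroblast-like nuclei had 220, 275 and 169 CPM of Ogn in pools 1 to 3, above the mesothelial-like level in pools 2 and 3. Smooth muscle-like nuclei had 57.7 ± 13.3 CPM and valve interstitial-like nuclei 33.4 ± 5.24 CPM. Valve interstitial-like nuclei were therefore below fibroblast-like nuclei, by 2.22 ± 0.17 log2 (difference -2.22, adjusted p = 1.56e-14).

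Podn, which binds collagen and restrains smooth muscle growth in mouse arteries, was measured mainly in mesothelial-like nuclei. They had 88.6 CPM in pool 1, 108 in pool 2 and 91.3 in pool 3, and 75.9% of all Podn UMIs. The next class, fibroblast-like, had 4.49, 3.47 and 1.99 CPM, a difference of 4.88 ± 0.28 log2 (adjusted p = 2.14e-18). Within the fibroblast-like class, the cluster led by Tmeff2 and Fgf10 (343 nuclei) had 10.7 ± 2.85 CPM and the cluster led by Abca8a (663 nuclei) 1.47 ± 1.57 CPM. Podn overlaps Scp2 on the same strand in the GENCODE M21 annotation, so reads in the overlap cannot be told apart.

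Kera, a gene known from the cornea and from tendon, gave 13 UMIs in 13131 nuclei. No class had more than 0.61 CPM of it on average. At this depth no pattern of Kera over classes could be measured.

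The mesothelial-like class was marked by Msln, Upk3b and Wt1. All 8 tested genes were called there against the other classes, where 45.1% of all genes tested were called. Dcn, Bgn, Fmod, Ogn, Prelp and Podn were higher and Lum and Aspn lower, the latter by 2.33 ± 0.35 log2 (difference -2.33, adjusted p = 2.82e-07). These nuclei had a median of 9842.5 UMIs and 2.97% mitochondrial UMIs, above the 3624 UMIs and 0.78% of valve interstitial-like nuclei. With nuclei of at most 2% mitochondrial UMIs, which left 102 mesothelial-like nuclei, the count was also 8. Without pool 1 it was 6, with Lum (adjusted p = 0.0564) and Prelp (adjusted p = 0.144) no longer called by edgeR. After each nucleus was thinned to 1000 UMIs, 80.0 ± 5.54% of mesothelial-like nuclei had a Dcn UMI, against 97.9 ± 2.50% before thinning. For Fmod the thinned share was 22.9 ± 0.96% and for Podn 8.39 ± 3.39%. In cardiomyocyte-like nuclei (median 4867 UMIs), read as background, the thinned shares were 15.1 ± 8.18% for Dcn, 1.49 ± 1.06% for Fmod and 0.10 ± 0.08% for Podn. This class share mixes clusters whose mean Dcn level ran from 42.9 CPM (1551 nuclei, with Fgf13) to 568 CPM (693 nuclei, led by Cox6a2).

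Fibroblast-like nuclei differed from valve interstitial-like nuclei in 5 of the 8 tested genes, where 21.8% of all genes tested were called. Dcn, Fmod and Prelp were higher in valve interstitial-like nuclei, and Ogn and Aspn were lower there. The largest of these differences was Fmod at 3.21 ± 0.20 log2 (adjusted p = 1.04e-16), while Aspn was at -1.29 ± 0.23 (adjusted p = 1.6e-05). The class levels mix clusters: for Aspn the valve interstitial-like cluster led by Abi3bp and Ctnna2 had a mean of 497 CPM and the Rmst cluster 34.5 CPM, on either side of the fibroblast-like 435 CPM. For Dcn the same clusters had means of 1215 and 2180 CPM, against 1097 CPM in fibroblast-like nuclei. Against all other classes, 6 of 8 genes were higher in fibroblast-like nuclei (29.5% of all genes called, 23.7% as higher), led by Aspn at 2.66 ± 0.17, Lum at 2.05 ± 0.14 and Ogn at 2.02 ± 0.14 log2. Bgn was among them at 0.53 ± 0.16 (adjusted p = 0.0107), a call that was lost without the pool block (adjusted p = 0.169), without pool 2 (0.214), at clustering resolution 0.5 (0.126) and with classes of at least 100 nuclei per pool (0.438). When nuclei were limited to 2% mitochondrial UMIs and clustered again, Lum turned lower in valve interstitial-like than in fibroblast-like nuclei (-0.93, adjusted p = 6.02e-08), and the Dcn difference was -0.07 (adjusted p = 0.871). No fibroblast-like cluster led by cell cycle genes existed in that clustering. With that cluster left out of the main clustering, the Lum difference was -0.15 ± 0.15 (adjusted p = 0.62), and fibroblast-like nuclei had 384 ± 156 CPM of Lum.

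The 3 fibroblast-like clusters had different proteoglycan profiles, given here as values with no test. The Tmeff2 and Fgf10 cluster had 1966 ± 535 CPM of Dcn, 741 ± 339 of Bgn and 522 ± 246 of Lum. The Abca8a cluster had 1301 ± 331 CPM of Dcn, 314 ± 122 of Lum, 692 ± 93.1 of Aspn and 252 ± 71.3 of Ogn. In the cluster led by cell cycle genes Dcn was 420 ± 201, Lum 102 ± 60.2 and Aspn 131 ± 32.7 CPM. For Aspn the pools of these 3 clusters did not overlap.

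**Figure D2:**
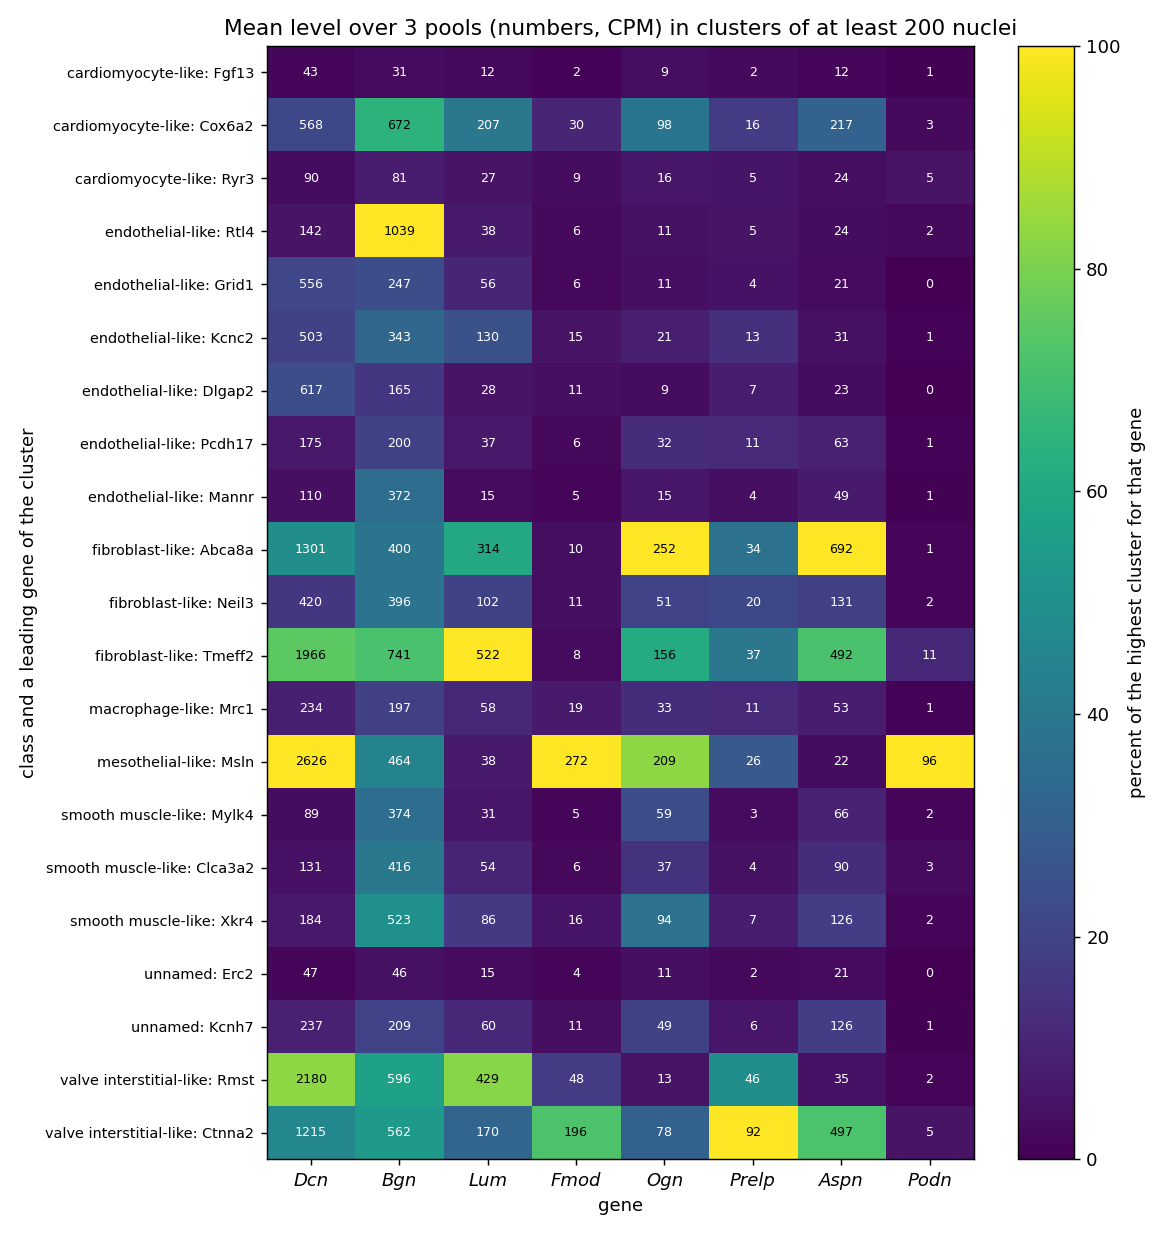
Mean level over 3 pools, in CPM (numbers), of 8 proteoglycan genes (columns) in each cluster of at least 200 nuclei (rows, named by class and a leading gene), coloured by the percent of that gene's highest cluster. Among the clusters shown, Bgn peaked in the endothelial-like Rtl4 cluster (1039 CPM) and Aspn in the Abca8a fibroblast-like cluster (692 CPM). Prelp peaked among them in the Ctnna2 valve interstitial-like cluster (92.3 CPM). Lymphatic endothelial-like nuclei (119 nuclei, 93.2 CPM of Prelp) are too few to be shown.

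The main valve interstitial-like clusters differed in most of these genes. The Ctnna2 cluster was set against the Rmst cluster in a test of 9948 genes, of which 14.7% were called, and 6 of the 7 proteoglycan genes that entered were called. Aspn, Ogn, Fmod and Prelp were higher in the Ctnna2 cluster, and Dcn and Lum were lower. Bgn was the gene that did not pass, at -0.09 ± 0.10 log2 (adjusted p = 0.683).

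Aspn had 510, 529 and 452 CPM in the Ctnna2 cluster and 44.9, 31.0 and 27.6 CPM in the Rmst cluster in pools 1 to 3. The 2 sets of pools lie far apart, with a difference of 3.79 ± 0.14 log2 (adjusted p = 6.53e-20). The thinned share of nuclei with an Aspn UMI was 28.8 ± 1.28% against 2.37 ± 1.11%, and the unthinned shares were 51.3 ± 5.82% and 8.53 ± 3.45%. The Rmst share lies under the 5.58 ± 3.10% of cardiomyocyte-like nuclei. That class value mixes clusters. By level the Rmst cluster was above the cardiomyocyte-like cluster with Fgf13, which had 17.2, 10.7 and 9.16 CPM of Aspn, and below the one led by Cox6a2, which had 221, 278 and 150.4 CPM. The Ctnna2 cluster gave 459, 317 and 184 Aspn UMIs and the larger Rmst cluster 86, 34 and 27.

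Ogn followed the same direction at a lower level, with 68.8, 85.1 and 81.1 CPM in the Ctnna2 cluster and 20.4, 13.7 and 6.13 CPM in the Rmst cluster. Its pools did not overlap, and the difference was 2.37 ± 0.25 log2 (adjusted p = 8.62e-09). Fmod had 276, 235 and 76.2 CPM against 49.6, 70.3 and 24.5 CPM. The groups did not overlap, although pool 3 of the Ctnna2 cluster was close to pool 2 of the Rmst cluster, and the difference within pools was 2.08 ± 0.16 log2 (adjusted p = 4.87e-12). Prelp had 114, 103 and 59.0 CPM against 54.9, 59.3 and 23.5 CPM, so pool 3 of the one cluster overlapped the other, and its difference was 1.01 ± 0.17 log2 (adjusted p = 3.02e-05).

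Dcn and Lum moved the other way. Dcn had 1262, 1602 and 781 CPM in the Ctnna2 cluster and 2333, 2649 and 1558 CPM in the Rmst cluster, a difference of -0.87 ± 0.10 log2 (adjusted p = 1.93e-08). Lum had 163, 245 and 100.7 CPM against 476, 580 and 231 CPM, a difference of -1.36 ± 0.12 (adjusted p = 7.2e-11). The clusters overlapped across pools for both genes, and within each pool the Rmst cluster was higher. With nuclei of at most 2% mitochondrial UMIs these differences were smaller, at -0.33 for Dcn (adjusted p = 0.029) and -0.69 for Lum, while Aspn stood at 4.14. The clusters' median depths were 3066 UMIs (Ctnna2) and 3979 (Rmst), and their median mitochondrial shares 0.85% and 0.72%. Leaving out any pool left 6 genes called.

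**Figure D3:**
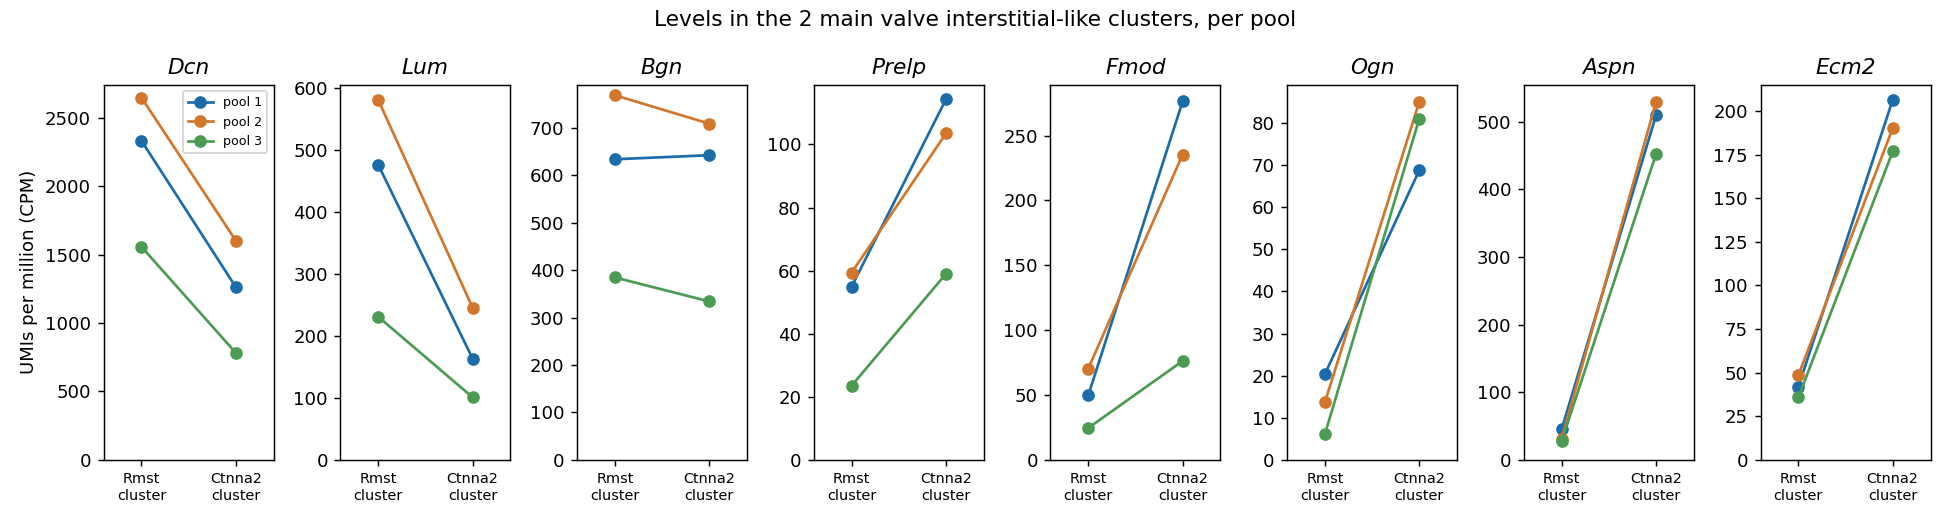
Level in CPM of 7 proteoglycan genes and Ecm2 in the Rmst and the Ctnna2 cluster of valve interstitial-like nuclei, with 1 line per pool. Aspn rose from 34.5 to 497 CPM and Ogn from 13.4 to 78.4 CPM in the mean of the pools, Dcn fell from 2180 to 1215 CPM, and Bgn had 596 and 562 CPM.

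Several of these genes are neighbours in the genome. In the GENCODE M21 annotation Ecm2, Aspn, Omd and Ogn follow each other on chromosome 13, Optc, Prelp and Fmod on chromosome 1, and Dcn, Lum, Kera and Epyc on chromosome 10. The 4 genes higher in the Ctnna2 cluster thus came from 2 of these groups and both lower genes from the third group. Ecm2, a leucine-rich matrix gene next to Aspn, was also higher in the Ctnna2 cluster, at 206, 190 and 177 CPM against 41.8, 48.4 and 35.7 CPM (2.19 ± 0.15 log2, adjusted p = 2.84e-13). Omd had 1.85 ± 1.70 and 1.20 ± 1.07 CPM there and was not tested. Cenpp, a centromere gene, overlaps Ecm2, Aspn, Omd and Ogn on the opposite strand in that annotation, and the strand setting of the counting is not given in the sources used here. Cenpp itself had 65.6 ± 15.5 CPM in the Ctnna2 cluster and 50.0 ± 19.6 CPM in the Rmst cluster, with overlapping pools.

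The sequences before the start of the 4 genes higher in the Ctnna2 cluster are printed because these genes changed together. They are the 250 bases upstream of the RefSeq start in build GRCm38.p6, on the strand of the gene, and capitals mark TATAAA on either strand. The build differs from the GRCm39 build of the counts, so the coordinates belong to the sequence table only. Of the 9 genes, 7 matched that table, which gave 8 promoters, and Dcn and Lum did not match. The positions are chr13:49544193-49544442 (plus strand) for Aspn, chr13:49607765-49608014 (plus) for Ogn, chr1:134037004-134037253 (plus) for Fmod and chr1:133921402-133921651 (minus) for Prelp.
Aspn: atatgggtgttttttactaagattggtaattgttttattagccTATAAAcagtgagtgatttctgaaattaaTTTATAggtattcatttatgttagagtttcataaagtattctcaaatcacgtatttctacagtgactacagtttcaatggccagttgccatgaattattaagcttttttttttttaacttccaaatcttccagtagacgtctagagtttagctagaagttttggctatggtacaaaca
Ogn: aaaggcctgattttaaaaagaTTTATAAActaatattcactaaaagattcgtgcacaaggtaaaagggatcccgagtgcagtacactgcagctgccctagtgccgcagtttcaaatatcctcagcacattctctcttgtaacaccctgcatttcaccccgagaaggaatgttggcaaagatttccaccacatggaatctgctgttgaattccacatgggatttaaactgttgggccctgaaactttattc
Fmod: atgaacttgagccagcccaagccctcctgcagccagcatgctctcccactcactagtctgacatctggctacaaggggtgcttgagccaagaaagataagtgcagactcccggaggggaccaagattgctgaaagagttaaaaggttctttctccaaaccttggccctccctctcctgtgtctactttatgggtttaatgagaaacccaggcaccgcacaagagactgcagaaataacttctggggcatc
Prelp: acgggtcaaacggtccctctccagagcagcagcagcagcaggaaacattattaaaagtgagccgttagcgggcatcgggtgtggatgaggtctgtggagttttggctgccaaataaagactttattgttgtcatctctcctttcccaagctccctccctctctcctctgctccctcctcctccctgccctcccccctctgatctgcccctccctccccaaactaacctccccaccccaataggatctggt
Aspn and Ogn each had 2 matches of TATAAA over both strands, which in Ogn overlap each other, and Fmod and Prelp had 0. Of 32851 promoters of this length in the table, 12.4% hold TATAAA. In Aspn the forward match begins 207 bases before the start, and in Ogn 227 bases before it. The E-box letters CANNTG, read once since they are the same on both strands, occurred 3 times in Ogn, 1 time each in Aspn and Fmod and 0 times in Prelp, and 66.2% of all promoters hold them. The remaining promoters, of Bgn, Kera and Podn, had 0 matches of TATAAA. A match is a description of the letters.

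Among endothelial-like nuclei, the cluster with Kcnc2 and Wnt9b among its leading genes (436 nuclei) was set against the other endothelial-like nuclei. Of the 7 proteoglycan genes in this test, 4 were called higher and 1 lower, where 24.7% of 11801 genes were called. Lum had 135, 144 and 110 CPM in the Kcnc2 cluster against 43.8, 52.7 and 18.8 CPM (1.75 ± 0.16 log2, adjusted p = 2.7e-10). Dcn had 534, 507 and 467 CPM against 323, 353 and 272 CPM (0.68 ± 0.10, adjusted p = 3.57e-06). For both genes the 2 groups did not overlap. Bgn was lower at 343 ± 90.4 against 528 ± 129 CPM (-0.61 ± 0.11, adjusted p = 7.9e-05), with pools that overlapped, and this call was lost without the pool block (-0.60, adjusted p = 0.0702). The comparison nuclei include the Rtl4 cluster at 1039 CPM of Bgn, whereas the remaining endothelial-like clusters of 200 or more nuclei had means of 165, 199.8, 247 and 372 CPM, so the Kcnc2 cluster was not below most of them. Fmod and Prelp, at 14.7 ± 11.4 and 12.8 ± 5.55 CPM, passed by small margins (adjusted p = 0.046 and 0.0371) and lost their calls in most alternatives run. The median mitochondrial share was 2.94% in the Kcnc2 cluster and 1.38% in the whole endothelial-like class, and its part in these differences was not tested.

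Smooth muscle-like and endothelial-like nuclei had members called in both directions. Smooth muscle-like nuclei had 125 ± 31.0 CPM of Dcn, below the other classes by 1.72 ± 0.23 log2 (difference -1.72, adjusted p = 2.33e-08). In all, 2 genes were called higher there (Bgn and Ogn) and 3 lower (Dcn, Lum and Prelp), where 33.3% of all genes were called. Without pool 2 the count fell from 5 to 2, and without the pool block it was also 2. The Lum call there (-0.60 ± 0.19) was lost in 6 alternatives, among them without pool 1 (-0.30, adjusted p = 0.509), and turned direction in 3 more. The Bgn call was lost in 5, among them without pool 2 (adjusted p = 0.116) and without pool 3 (0.0967). The Ogn call was lost without the pool block (0.56, adjusted p = 0.0845 in edgeR) and without pool 2 (0.50, 0.0768). In both of those settings 0 genes were called higher. The Prelp call was lost without pool 2 and turned direction at the limit of 2% mitochondrial UMIs. Calls were gained in smooth muscle-like nuclei for Aspn, higher in 4 alternatives at 0.54 to 0.82, and for Fmod, lower in 4 at -0.99 to -1.20. In endothelial-like nuclei Bgn was called higher (0.65 ± 0.16, adjusted p = 0.00108) and Lum, Ogn, Prelp and Aspn lower, where 29.3% of all genes were called. The endothelial-like Lum call (-0.48 ± 0.18, adjusted p = 0.035) was lost in most alternatives run, and 2 genes were called without pool 1 and without the pool block. The endothelial-like Prelp call was lost without pool 2, without the pool block (adjusted p = 0.0635 in edgeR) and at clustering resolution 0.5 (0.0523). It turned direction at the limit of 2% mitochondrial UMIs. The Ogn and Aspn calls were lost without pool 1. Without the block the Bgn call was lost (0.59, adjusted p = 0.109), which left 0 genes called higher.

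Cardiomyocyte-like nuclei, which are not known as a source of these proteins, gave the level read as background, and it differed between their clusters. The cluster with Fgf13 among its leading genes (1551 nuclei, median 0.38% mitochondrial UMIs) had 42.9 ± 10.3 CPM of Dcn and 31.3 CPM of Bgn. The cluster led by Cox6a2 and Mb (693 nuclei, median 3.59% mitochondrial and 2294 UMIs) had 568 ± 131 CPM of Dcn, 672 CPM of Bgn, 207 CPM of Lum and 217 CPM of Aspn. For Bgn this is above the mean of every class in the tests. Among the proteoglycan UMIs of the Cox6a2 cluster, Dcn made 30.3%, 29.8% and 36.2% in pools 1 to 3, against 46.2%, 46.5% and 47.6% over all analysed nuclei. The part of RNA from other cells in the low levels of the remaining classes was not tested.

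**Figure D4:**
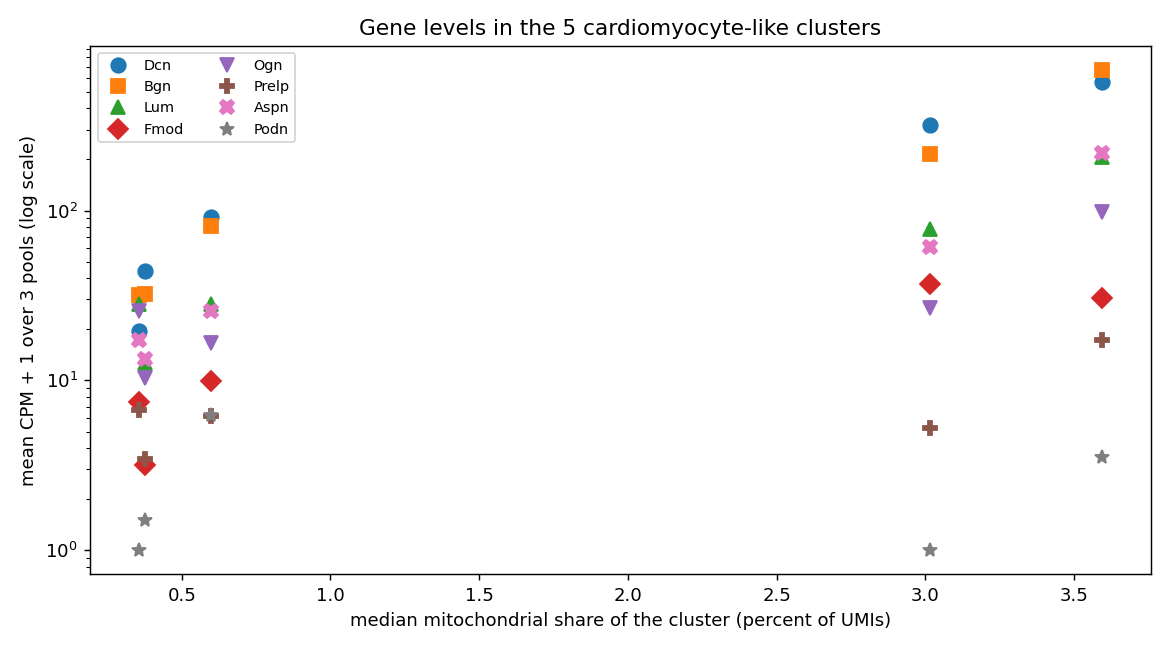
Mean level over 3 pools (CPM + 1, log scale) of 8 proteoglycan genes in the 5 cardiomyocyte-like clusters, placed by the cluster's median mitochondrial share in percent of UMIs. Dcn was at 42.9 CPM in the Fgf13 cluster at 0.38% and at 568 CPM in the Cox6a2 cluster at 3.59%.

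Shares of nuclei were also computed. After thinning, at least 1 of the 9 genes had a UMI in 89.3 ± 2.15% of mesothelial-like, 78.7 ± 5.05% of valve interstitial-like and 74.6 ± 6.12% of fibroblast-like nuclei, against 29.2 ± 15.1% of cardiomyocyte-like nuclei. UMIs of at least 3 of the genes were found in 21.9 ± 1.18%, 16.2 ± 8.61% and 18.1 ± 8.49% of the first 3 classes. The corresponding background was 5.15 ± 3.87%. In cardiomyocyte-like nuclei pool 3 stood apart, with 11.9% having at least 1 gene against 36.1% and 39.7% in the other pools.

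Bgn lies on the X chromosome, and its level was compared between the sexes. Female and male nuclei, called from Xist and 4 Y-linked genes, were summed per pool in valve interstitial-like, fibroblast-like, smooth muscle-like and endothelial-like nuclei. Of the 5 proteoglycan genes tested, 0 were called by edgeR, 0 by DESeq2 and 0 had an unadjusted p under 0.05 in edgeR, where 0.0515% of 9710 genes were called. The difference of Bgn, female minus male, was 0.05 ± 0.08 log2. In valve interstitial-like nuclei it had 624, 678 and 315 CPM in female and 606, 740 and 417 CPM in male nuclei, and the groups overlapped.

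Cycling nuclei, with at least 2 UMIs over 12 cell cycle genes after thinning, were compared with other nuclei of their class and pool. The classes were valve interstitial-like, fibroblast-like and endothelial-like, since smooth muscle-like nuclei had too few cycling nuclei in a pool. Dcn, Lum, Ogn and Aspn were lower in the cycling nuclei. These were 4 of the 7 tested genes, where 23.2% of 10305 genes were called and 10.2% as lower. The differences were -1.03 ± 0.19 log2 for Dcn (adjusted p = 0.000291), -1.15 ± 0.18 for Lum, -1.44 ± 0.23 for Ogn and -1.47 ± 0.26 for Aspn, while Bgn was at 0.03 ± 0.15. Fibroblast-like nuclei had 497 ± 243 CPM of Dcn in cycling and 1374 ± 326 in other nuclei. Of the 397 cycling fibroblast-like nuclei, 377 lay in the cluster led by cell cycle genes, and of the 1111 other nuclei 125 did, so in this class the comparison is largely one between clusters. In valve interstitial-like nuclei pool 1 went the other way, with 2199 CPM of Dcn in cycling and 1959 in other nuclei. The cycling sums of that class held 14, 17 and 11 nuclei in pools 1 to 3. Without fibroblast-like nuclei 2 genes (Dcn and Lum) were called, and with doublets kept the count was 0. With doublets kept Aspn was at 0.24 (adjusted p = 0.57), and at the limit of 2% mitochondrial UMIs Ogn was at 0.79 (0.576) and Aspn at 1.04 (0.268), so their direction turned and the calls ended. Cenpp, on the strand opposite to Aspn and Ogn, stood at 1070 ± 33.6 CPM in cycling and 167 ± 13.5 CPM in other fibroblast-like nuclei, opposite to its neighbours.

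Of 9 further small leucine-rich genes, Ecm2 had 3441 UMIs and the rest had between 39 and 219 UMIs in all nuclei. Ecm2 had 120 ± 13.2 CPM in lymphatic endothelial-like, 110 ± 5.28 in pericyte-like, 93.7 ± 8.0 in fibroblast-like and 87.8 ± 11.0 in valve interstitial-like nuclei, and no neighbouring pair of these passed the test. Mesothelial-like nuclei had the highest class mean of Ogn only while the fibroblast-like cluster led by cell cycle genes was kept. They had 7.63 ± 1.69 CPM of Ecm2. In fibroblast-like nuclei 4 of the 4 tested genes of this list were higher than in the mean of the other classes (23.7% of all genes called higher), among them Omd at 9.42 CPM and Epyc at 9.07 CPM. Single classes could still equal or exceed them, as for Ecm2 above, and Epyc was also called higher in macrophage-like nuclei. Of the fibril collagens and their partners, 11 of 11 tested genes were higher in valve interstitial-like nuclei (20.7% of all genes called higher), with a median log2 difference of 0.85 against 0.22 over all genes. In fibroblast-like nuclei 11 of 11 were higher (23.7% of all genes), with a median of 1.55 against 0.29. In mesothelial-like nuclei 9 of 11 were higher and 1 lower (45.1% of all genes called), with a median of 1.85 against 0.22. Between the Ctnna2 and Rmst clusters, 6 of 10 were higher and 0 lower (14.7% of all genes called), led by Col12a1 at 1.48 ± 0.10, Col6a3 at 0.93 ± 0.11 and Col14a1 at 0.67 ± 0.10 log2. These 3 encode a fibril-associated, a microfibrillar and again a fibril-associated collagen.

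The enzymes that build and sulfate the glycosaminoglycan chains were mixed. In valve interstitial-like nuclei 9 of 23 tested enzymes were higher and 0 lower than in the other classes, where 20.7% of all genes were called higher. Chst11, a chondroitin 4-O-sulfotransferase, led them at 2.91 ± 0.10 log2, and Xylt1, which starts the chains, was at 2.36 ± 0.13. In the Ctnna2 cluster Xylt1, Chsy3 and Dse were higher than in the Rmst cluster, by 1.10 ± 0.11, 1.01 ± 0.11 and 0.48 ± 0.13, and Chst11 was lower at -1.32 ± 0.12, so 4 of 17 were higher and 1 lower, where 14.7% of all genes were called. In mesothelial-like nuclei 8 of 23 were higher and 6 lower, where 45.1% of all genes were called. B3gnt7, which extends keratan sulfate, was at 5.59 ± 0.47 there and Chsy3, which extends chondroitin, at -2.07 ± 0.27.

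The genes whose pattern over the 30 sums of pool and class was most like each proteoglycan gene are given as a description by Pearson's r of log2(CPM + 5). The sums share libraries and depth. Dcn was most like Col3a1 (r = 0.917), Bgn like the collagen-modifying gene P3h3 (0.921), Lum like Dpt (0.904), Fmod like C4b (0.955), Ogn like Gpc3 (0.910), Prelp like Fxyd6 among genes with a symbol (0.828), Aspn like Vstm4 (0.931) and Podn like Gjb5 (0.968).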

How the data were processed

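Per the file headers, Cell Ranger 7.1.0 wrote the deposited tables, whose values are UMI counts with no normalization. The submitters' processing notes also name Cell Ranger 7.0.1 and build GRCm39. The annotation, the counting of introns, the strand setting and the rule for calling nuclei are not given in the sources used here. The deposited tables held 10580, 5949 and 4611 nuclei with 49918251, 25341316 and 21254247 UMIs in pools 1 to 3. Scrublet's automatic threshold marked 0, 0 and 1 nuclei as doublets, so the highest scores were left out at 0.8% per 1000 nuclei, which removed 942 of 14073 nuclei. Counts scaled to 10000 per nucleus were clustered with scanpy 1.11.5 and leidenalg 0.10.2 on 2000 variable genes, 30 components and 15 neighbours at resolution 1. The proteoglycan genes and the lists were among 85 genes kept out of the clustering. A cluster was named from at least 3 markers found in 10% of its nuclei and 2-fold higher than elsewhere.

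The counts were added up over the nuclei of each pool and class with at least 20 nuclei in every pool, and tested with edgeR 4.0.16 (R 4.3.3) after TMM scaling and filterByExpr. Pool was a block because all sums of a pool come from 1 library. The labels call the pools replicates but do not give the litters. With pool as a block, p-values measure how differences within a pool vary over these 3 pools. They do not measure the spread of a level between pools. Only the test of valve interstitial-like nuclei against the other classes was run on simulated counts, which had no pool effect and a fixed spread. That run cannot show how the tests behave on the real sums, which share libraries within a pool. DESeq2 1.42.0, other scalings, filters and clusterings were alternatives, 2 of which were chosen after seeing the data: without the fibroblast-like cluster led by cell cycle genes, and, for cycling nuclei, without all fibroblast-like nuclei. Further genes were named as all of the other small leucine-rich list, up to 3 per direction of the collagen and enzyme lists, and the genes most like each proteoglycan gene. The 9 genes and the lists were chosen with earlier results of these data known.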

Additional observations from a re-analysis of the deposited data

How the results depend on the processing

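Of 1037 recomputed values, 937 kept their side of the threshold, 70 lost and 18 gained a call, and 12 reversed. Of the 937, 42 turned sign with no call in either setting, among them Lum in valve interstitial-like against fibroblast-like nuclei without the cell cycle cluster. The gained calls were Aspn (4) and Fmod (4) in smooth muscle-like nuclei, Fmod (4, -1.12 to -1.42), Podn (-1.71 with DESeq2) and Dcn (-0.36 with classes of at least 100 nuclei) in endothelial-like nuclei, Ogn (3, -0.43 to -0.49) in valve interstitial-like nuclei, and Bgn in the Ctnna2 cluster (-0.31 at resolution 2). Of 11 further comparisons of fibroblast-like nuclei with the class next in level, 9 kept their call or its absence without the cell cycle cluster, Ogn lost one and Aspn gained one. The count of 5 genes called changed to 2 in smooth muscle-like nuclei and 2 in endothelial-like nuclei with no replicate block, and to 3 in both at resolution 0.5. Leaving out 1 pool at a time gave 2 to 4 genes in smooth muscle-like, 2 to 5 in endothelial-like nuclei, 3 to 5 for valve interstitial-like against fibroblast-like nuclei, and 3 to 5 in the Kcnc2 cluster. The Kcnc2 count of 5 became 2 with no replicate block and 3 with DESeq2, at resolution 2, with at least 500 UMIs, at least 2000 UMIs and at most 2% mitochondrial UMIs. The cycling count of 4 became 0 with doublets kept, 1 at the 2% limit and 2 without fibroblast-like nuclei.

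Reversed values were Fmod in fibroblast-like nuclei (-0.76 with DESeq2 and -0.63 with classes of at least 100 nuclei), Lum in smooth muscle-like nuclei (0.31 with doublets kept, 0.011 with at least 2000 UMIs, 0.035 at the 2% limit) and Prelp at the 2% limit in smooth muscle-like (0.29) and endothelial-like nuclei (0.30). At that limit, valve interstitial-like minus fibroblast-like was -0.065 for Dcn and -0.93 for Lum, and cycling minus other was 0.79 for Ogn and 1.04 for Aspn. Aspn in cycling nuclei was also 0.24 with doublets kept. The cause was not tested. Of 89 recomputed levels, 81 moved by less than 1 SD. Of 18 shares of nuclei recomputed without thinning or at 2000 UMIs, 0 stayed within 1 SD, so the printed shares hold only at their stated depth. Fmod, Prelp and Podn have few UMIs outside their main classes, and their depth limits those comparisons. The resolution of 0.5 gave 1 valve interstitial-like cluster, and so no value for the Ctnna2 and Rmst clusters.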
